A study of Mus musculus with 357 samples.

Results

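Single hematopoietic stem cells (HSCs) that had all been sorted for CD150 protein were divided by whether the transcript of Slamf1, the gene that encodes CD150, gave a product. The groups were chosen by the Slamf1 threshold cycle (Ct, the PCR cycle at which a product crosses the detection threshold, so a lower Ct means more template). Group A, called Slamf1-detected, held the 229 of 357 cells with a Slamf1 Ct of 25 or below (64.1%, exact 95% interval 58.9 to 69.1%). Group B, called Slamf1-undetected, held the other 128 cells. The cells, all Lin-Sca1+c-kit+CD48-CD150+, came from the bone marrow of mice with the genotype Col1a1-tetO-H2B-mCherry. This allele is a histone H2B-mCherry fusion behind a tetracycline-responsive promoter, so a pulse of label is diluted as cells divide, and marrow was taken after a chase of 2 weeks or 5 weeks. Each chase time was represented by 2 plates with 1 cell per well (2w P1 and 2w P2, 5W P1 and 5W P2), and 96 gene assays were run on each cell. The labels give no age, no animal of origin and no transactivator line, and every group shares the transgene and the sort.

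SLAMF1 is a receptor of the SLAM family that binds itself on neighbouring cells, and its surface protein, CD150, marks long-term repopulating HSCs in the mouse when CD48 is absent. Within that gate the level of CD150 protein is known to vary, with high levels linked to megakaryocyte and myeloid output and lower levels to lymphoid output. Von Willebrand factor, made by megakaryocytes and endothelium, is used as a mark of platelet-biased HSCs, whereas the receptor tyrosine kinase FLT3 and the sialomucin CD34 rise as HSCs turn into multipotent progenitors.

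The assay for Slamf1 gave 2 kinds of reaction with nothing between them. In the 229 detected cells the Ct ran from 13.7 to 19.2, with 6 products later than Ct 18, and the members nearest the limit had Ct 19.2 and 19.1. In the 128 undetected cells there was no Slamf1 product at all, so the nearest cell outside the limit was a reaction without product. An absent transcript and a failed reaction cannot be told apart in such a cell. By plate, Slamf1 was detected in 67 of 90 cells on 2w P1 (74.4%, exact 95% interval 64.2 to 83.1%), in 65 of 93 on 2w P2 (69.9%, 59.5 to 79%), in 47 of 91 on 5W P1 (51.6%, 40.9 to 62.3%) and in 50 of 83 on 5W P2 (60.2%, 48.9 to 70.8%). The mean Ct in detected cells was 16.1 ± 1.00 (SD, n = 67 cells), 15.7 ± 0.88 (n = 65), 16 ± 1.14 (n = 47) and 16 ± 1.00 (n = 50) in the same order. The intervals are Clopper-Pearson and cover counting error only. Those on cells pooled over plates, here and below, leave out the spread between plates.

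**Figure D1:**
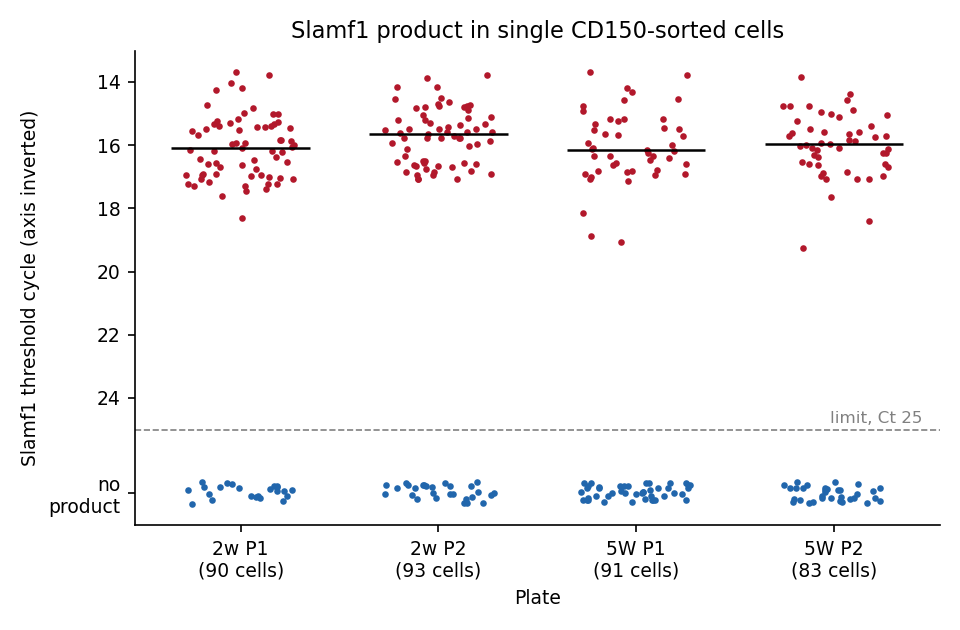
Slamf1 threshold cycle of each single cell (vertical axis, inverted, in cycles) by plate, with detected cells in red, cells without a product in blue at the bottom and the median of detected cells as a black line. Products lie between Ct 13.7 and 19.2, and none lies between there and the limit of Ct 25.

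The cells of both groups amplified well, with slightly more template in the Slamf1-detected cells. The mean Ct of the housekeeping genes Actb and Gapdh, called the reference Ct below, averaged 0.25 cycles lower in detected cells, and the plate differences ran from -0.43 to -0.06. It was 11.5 against 11.9 on 2w P1, 11.3 against 11.8 on 2w P2, 11.3 against 11.4 on 5W P1, and 11.5 on both sides on 5W P2. Detected cells had a product in 1.25 more of the other 95 assays (0.31 to 2.21 over the plates), and in 0.30 more once the reference Ct was allowed for. Each comparison was therefore made within a plate, once as it stands and once with the reference Ct as a covariate. No animal is named, so cells were not treated as replicates and only the 4 plates, which may be technical repeats, could repeat a difference. A sign-flip permutation test over 4 plates cannot give a p below 1 in 8, so no p is given. An assay was called when its difference had the same sign on all 4 plates and a mean of at least 10 percentage points in detection or 0.5 cycles in level. This is a rule of size and sign and carries no error rate.

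Megakaryocyte and erythroid transcripts were the ones found more often beside Slamf1, and transcripts of multipotent progenitors were the ones found less often. Vwf (assay vwf), Epor, the erythropoietin receptor, and Gata1, the transcription factor of megakaryocytes and red cells, were called higher in the detected cells. Flt3 and Cd34 were called lower. These are 3 of 95 assays in the higher direction (3.16%) and 2 of 95 in the lower (2.11%). With the reference Ct allowed for, vwf and Epor remained among the 2 of 95 called higher (2.11%), and Flt3 and Cd34 remained among the 3 of 95 called lower (3.16%), joined by Cdkn2c, which encodes a cyclin-dependent kinase inhibitor. The median of all 95 mean differences was 0.51 points as it stands and 0.04 points with the reference Ct, so the assays as a whole did not shift by much. Of the 95 means, 53 lay above 0, 34 below and 8 at 0.

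The 250 bases upstream of the annotated start are shown for Slamf1 and for 3 of the called genes. They are shown because Gata1, whose protein binds GATA words, was itself among the assays found more often with Slamf1. Gata1 lost its call with the reference Ct, however, and no window was available for Vwf. The sequences are RefSeq's for GRCm38.p6, printed 5′ to 3′ on the strand of the gene. Capitals mark GATA words, which have the core GATA with A or T just before it and A or G just after it, searched on both strands, so that a word on the other strand shows the core TATC. The windows are chr1:171766882-171767131 (+) for Slamf1, chr9:21963577-21963826 (-) for Epor, chr1:194938571-194938820 (+) for Cd34 and chr5:147400490-147400739 (-) for Flt3.
Slamf1: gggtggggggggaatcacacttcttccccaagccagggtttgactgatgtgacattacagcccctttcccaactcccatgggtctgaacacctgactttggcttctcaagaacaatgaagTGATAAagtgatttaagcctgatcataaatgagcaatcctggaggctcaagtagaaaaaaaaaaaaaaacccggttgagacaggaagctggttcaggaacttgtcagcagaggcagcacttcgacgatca
Epor: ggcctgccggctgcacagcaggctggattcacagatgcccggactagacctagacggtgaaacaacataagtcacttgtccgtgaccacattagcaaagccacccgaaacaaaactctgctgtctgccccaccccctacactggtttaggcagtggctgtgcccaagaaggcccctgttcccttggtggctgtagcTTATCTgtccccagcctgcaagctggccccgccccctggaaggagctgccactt
Cd34: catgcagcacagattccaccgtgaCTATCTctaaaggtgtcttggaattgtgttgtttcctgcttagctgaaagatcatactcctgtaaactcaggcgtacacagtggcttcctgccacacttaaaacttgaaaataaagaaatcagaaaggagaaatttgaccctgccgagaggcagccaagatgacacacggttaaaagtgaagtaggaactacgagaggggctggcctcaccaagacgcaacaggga
Flt3: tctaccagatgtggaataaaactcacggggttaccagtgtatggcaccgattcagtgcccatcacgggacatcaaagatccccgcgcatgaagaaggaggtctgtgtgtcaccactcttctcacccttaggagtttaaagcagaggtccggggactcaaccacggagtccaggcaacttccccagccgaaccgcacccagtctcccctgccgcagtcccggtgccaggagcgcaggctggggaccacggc
Slamf1 held TGATAA starting 130 bases before the start, Epor TTATCT at 54 bases and Cd34 CTATCT at 226 bases. None of the letters searched occurred in the windows of Flt3 and Gata1. Of 32841 such windows over all genes, 26.5% held at least 1 of these words, and a match is a run of letters, not a measured site.

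Vwf showed the largest difference of the 95 assays. A vwf product was found in 43.3% of detected cells (29 of 67, exact 95% interval 31.2 to 56%) against 8.70% of undetected cells (2 of 23, 1.07 to 28%) on 2w P1. On 2w P2 the shares were 43.1% (28 of 65, 30.8 to 56%) and 14.3% (4 of 28, 4.03 to 32.7%), and these intervals overlap by little. At 5 weeks both groups had more vwf-positive cells, with 63.8% (30 of 47, 48.5 to 77.3%) against 36.4% (16 of 44, 22.4 to 52.2%) on 5W P1. The last plate, 5W P2, gave 58% (29 of 50, 43.2 to 71.8%) against 42.4% (14 of 33, 25.5 to 60.8%), and there the intervals overlap widely. The difference was thus 34.6, 28.8, 27.5 and 15.6 points, a mean of 26.6, and 25.4 with the reference Ct. Every one of the 4 vwf shares in detected cells exceeded the undetected share of its own plate. The lowest detected share (43.1%, 2w P2) lay little above the highest undetected share (42.4%, 5W P2), a comparison between chase times. How many of the 95 assays keep their shares apart in this way was not counted, here or for Epor and Flt3 below.

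Epor was scarcer in both groups and differed by a similar amount on each plate. Its product was found in 22.4% of detected cells (15 of 67, 13.1 to 34.2%) against 4.35% of undetected cells (1 of 23, 0.11 to 21.9%) on 2w P1, and in 30.8% (20 of 65, 19.9 to 43.4%) against 10.7% (3 of 28, 2.27 to 28.2%) on 2w P2. The 5-week plates gave 46.8% (22 of 47, 32.1 to 61.9%) against 20.5% (9 of 44, 9.80 to 35.3%) and 32% (16 of 50, 19.5 to 46.7%) against 15.2% (5 of 33, 5.11 to 31.9%). Differences of 18, 20.1, 26.4 and 16.8 points average 20.3, and 16.3 with the reference Ct. The lowest detected share, 22.4% on 2w P1, lay little above the highest undetected share, 20.5% on 5W P1.

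Gata1 was the weakest of the higher calls. It was found in 14.9% against 4.35% of cells on 2w P1 (10 of 67 and 1 of 23), 12.3% against 7.14% on 2w P2 (8 of 65 and 2 of 28), 29.8% against 9.09% on 5W P1 (14 of 47 and 4 of 44) and 24% against 15.2% on 5W P2 (12 of 50 and 5 of 33). The difference was 10.6, 5.2, 20.7 and 8.8 points, a mean of 11.3. With the reference Ct it was 7.1 points on average and -1.1 on 2w P2, and without 5W P1 the mean was 8.2, so Gata1 was not called in either case.

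Flt3 went the other way and most strongly at 2 weeks. A product was found in 32.8% of detected cells (22 of 67, 21.8 to 45.4%) against 65.2% of undetected cells (15 of 23, 42.7 to 83.6%) on 2w P1, and in 44.6% (29 of 65, 32.3 to 57.5%) against 71.4% (20 of 28, 51.3 to 86.8%) on 2w P2. On 5W P1 the shares were 44.7% (21 of 47, 30.2 to 59.9%) and 61.4% (27 of 44, 45.5 to 75.6%), and on 5W P2 they were 38% (19 of 50, 24.7 to 52.8%) and 45.5% (15 of 33, 28.1 to 63.6%). The lowest undetected share, 45.5% on 5W P2, lay little above the highest detected share, 44.7% on 5W P1. The difference was -32.4, -26.8, -16.7 and -7.5 points, a mean of -20.8, and -21.5 with the reference Ct.

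Cd34 was common in all cells and less so where Slamf1 was detected. The shares were 56.7% (38 of 67, 44 to 68.8%) against 73.9% (17 of 23, 51.6 to 89.8%) on 2w P1 and 53.8% (35 of 65, 41 to 66.3%) against 75% (21 of 28, 55.1 to 89.3%) on 2w P2. They were 70.2% (33 of 47, 55.1 to 82.7%) against 86.4% (38 of 44, 72.6 to 94.8%) on 5W P1 and 74% (37 of 50, 59.7 to 85.4%) against 78.8% (26 of 33, 61.1 to 91%) on 5W P2. The groups overlap across plates for Cd34, since the detected share on 5W P2 exceeds the undetected share on 2w P1, but within each plate the detected cells had the lower share. Plate differences of -17.2, -21.2, -16.2 and -4.8 points average -14.8, and -19.5 with the reference Ct.

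**Figure D2:**
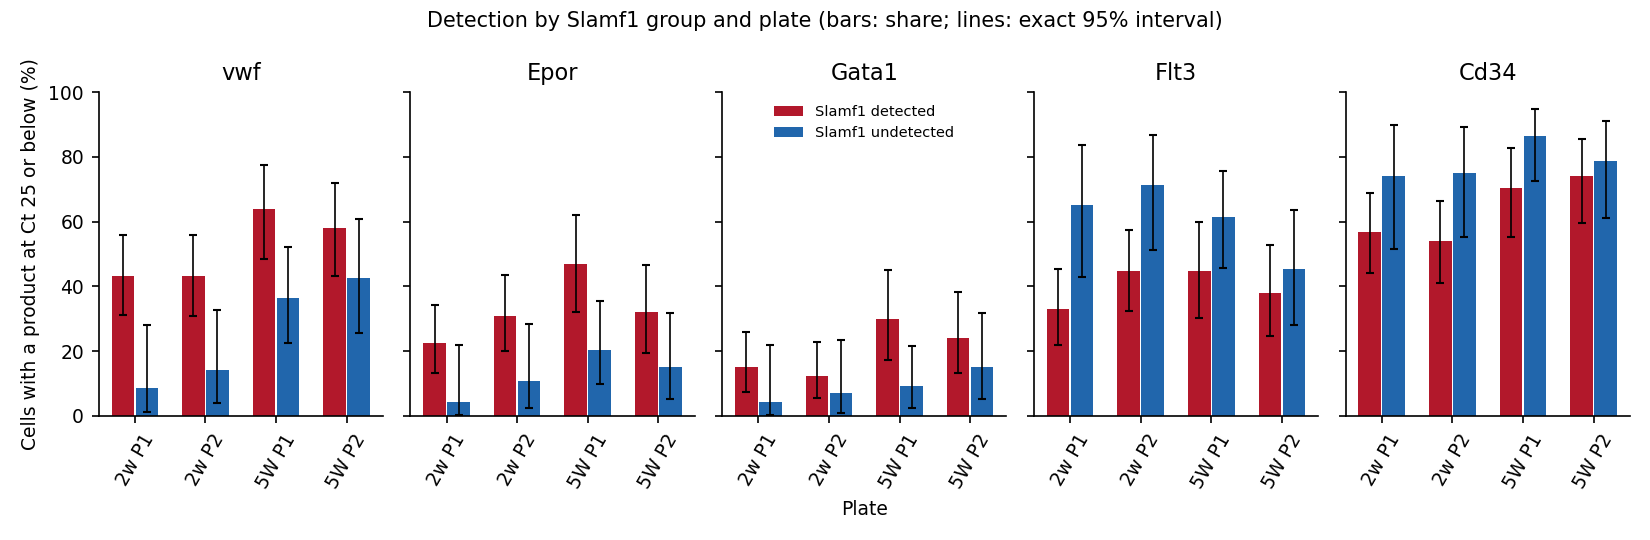
Share of cells with a product at Ct 25 or below (vertical axis, percent) for vwf, Epor, Gata1, Flt3 and Cd34, by plate, in Slamf1-detected cells (red) and Slamf1-undetected cells (blue). Lines are exact 95% intervals, and the red bar is the higher one on all 4 plates for vwf, Epor and Gata1 and the lower one on all 4 plates for Flt3 and Cd34.

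Cdkn2c was called lower with the reference Ct, at -10.6 points, but not as it stands, where its plate differences of 5.3, -0.8, -13.8 and -8.4 points average -4.5. Its share was 31.3% against 26.1% on 2w P1, 38.5% against 39.3% on 2w P2, 36.2% against 50% on 5W P1 and 34% against 42.4% on 5W P2. The call with the reference Ct was lost without 2w P2 and without 5W P1. Among assays outside the calls with means past 10 points and a plate across 0 were ndn (10.8 points), which encodes the growth suppressor necdin, Itga2b (10.7), the integrin subunit CD41 of megakaryocytes and platelets, and Hk3 (-11.7), a hexokinase. Hk3 was named after its values were seen.

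**Figure D3:**
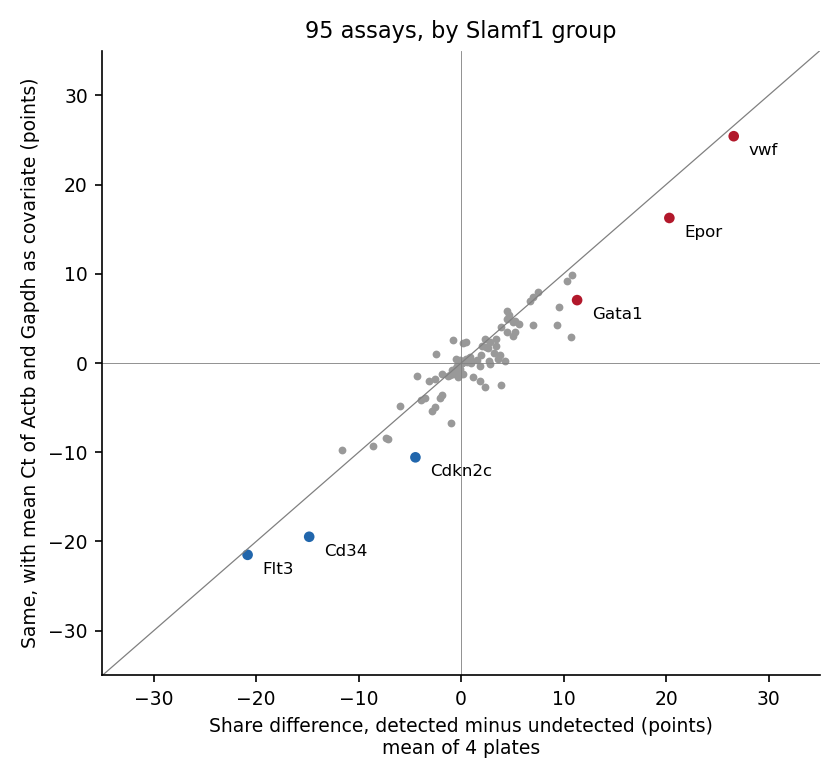
Mean over 4 plates of the difference in detection share between Slamf1-detected and Slamf1-undetected cells (percentage points) for the 95 other assays, as it stands (horizontal axis) and with the mean Ct of Actb and Gapdh as covariate (vertical axis). Coloured points are the assays called in either form, and vwf, Epor, Flt3 and Cd34 lie outside the range of the grey assays in both.

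In the whole list of 9 measured megakaryocyte and erythroid genes, 3 were called higher and 0 lower, with a median of 9.34 points against 0.51 over all 95 assays. With the reference Ct 2 were called higher and the median fell to 3.51 points. Klf1, the erythroid Krüppel-like factor, lay above 0 on all 4 plates with a mean of 5.2 points but below the minimum. Gfi1b, a repressor needed in both lineages, averaged 9.3 points with opposite signs on the plates, at 23.7 and 28.4 points at 2 weeks against -16 and 1.3 at 5 weeks. The erythroid factor Nfe2 (-0.4 points) and the GATA1 cofactor Zfpm1 (-0.1) had nearly equal shares in both groups, and Nfe2, Klf1 and Gfi1b were chosen after their values were seen. Detected cells had 4.90, 4.94, 5.83 and 5.38 of the 9 transcripts on average over 2w P1, 2w P2, 5W P1 and 5W P2, and undetected cells had 3.78, 4.07, 5.00 and 4.91. This number was higher in the detected cells on every plate and differed least on 5W P2. It includes the called assays vwf, Epor and Gata1, so it is no further evidence for their difference.

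Of the 5 compared surface phenotype genes, 0 were called higher and 2 lower (Flt3 and Cd34), both with and without the reference Ct, with medians of -1.41 and -4.33 points. Kit, the stem cell factor receptor used in the gate, was found in 96.9 to 100% of cells in every group and plate. Ly6a, which encodes Sca1, was detected in 86.6% against 95.7% and 90.8% against 100% on the 2-week plates and in 74.5% against 72.7% and 72% against 72.7% on the 5-week plates, with a mean of -4.3 points and no call. Cd48, whose protein was excluded by the sort, was found in at most 2.13% of detected cells and 6.06% of undetected cells on any plate.

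Multipotent progenitor genes were checked as markers of other cells that the gate could hold. Of 4 measured (Flt3, Cd34, Cd48 and Dntt, the terminal transferase of early lymphoid cells), 0 were called higher and 2 lower, with a median of -7.64 points, or -10.1 with the reference Ct. Detected cells had 1.00, 1.09, 1.26 and 1.16 of the 4 transcripts on average over the plates, and undetected cells 1.48, 1.54, 1.52 and 1.42. The detected average was the lower one on each plate. These averages include Flt3 and Cd34, which were called lower on all 4 plates, so they restate those calls and are no further evidence. Since these markers move with the groups, vwf and Epor are also given within Flt3-positive and Flt3-negative cells further on. Dntt stayed between 4.00 and 9.23% of detected cells and between 4.55 and 12.1% of undetected cells. Of the lists for mature blood cells and for endothelium and stroma, 0 genes were among the assays, so that part of the check was not tested.

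In detection, Flt3 alone was called among genes of other lineages. Of 8 lymphoid genes, 0 were called higher and 1 lower (Flt3), with a median of -0.23 points, and Notch1 (-3.5), Tcf3 (2.4) and Dntt (-0.5) were not called. Of 6 granulocyte and monocyte genes 0 were called either way, with a median of -1.17 points. Csf2rb, the shared beta chain of cytokine receptors, had -7.2 points, and the factors Cebpb and Cebpa had 6.7 and -2.6. Cebpb lay above 0 on all 4 plates but under the minimum. Sfpi, the assay name kept for the PU.1 gene, entered no list and had -7.3 points.

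No gene tied to stem cell identity or to division was called by detection as the shares stand. Of 24 stem cell associated genes, 0 were called higher or lower, with a median of 0.66 points. Hlf, a leucine zipper factor of HSCs, was present in 97.9 to 100% of cells everywhere, and Mllt3, which sustains HSC self-renewal, lay above 0 on every plate at 4.6 points on average. None of 8 cell cycle genes was called (median 0.60 points, with cyclin D1, Ccnd1, at 3.8). Among 12 cell cycle inhibitors 0 were called as they stand and 1, Cdkn2c, was called lower with the reference Ct, with medians of 4.38 and 3.30 points. The p21 gene Cdkn1a (5.7 points) was above 0 on all 4 plates, and Mdm2, the regulator of p53, averaged 9.5 points with -3.2 on 5W P1. No call was made among 3 Polycomb genes (median 3.87 points, Ezh1 at 7.5), 3 immediate early genes (median -0.76 points, Fos at -5.9) or 4 enzymes (median 1.27 points, the arginine methyltransferase gene Prmt2 at -8.6).

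**Figure D4:**
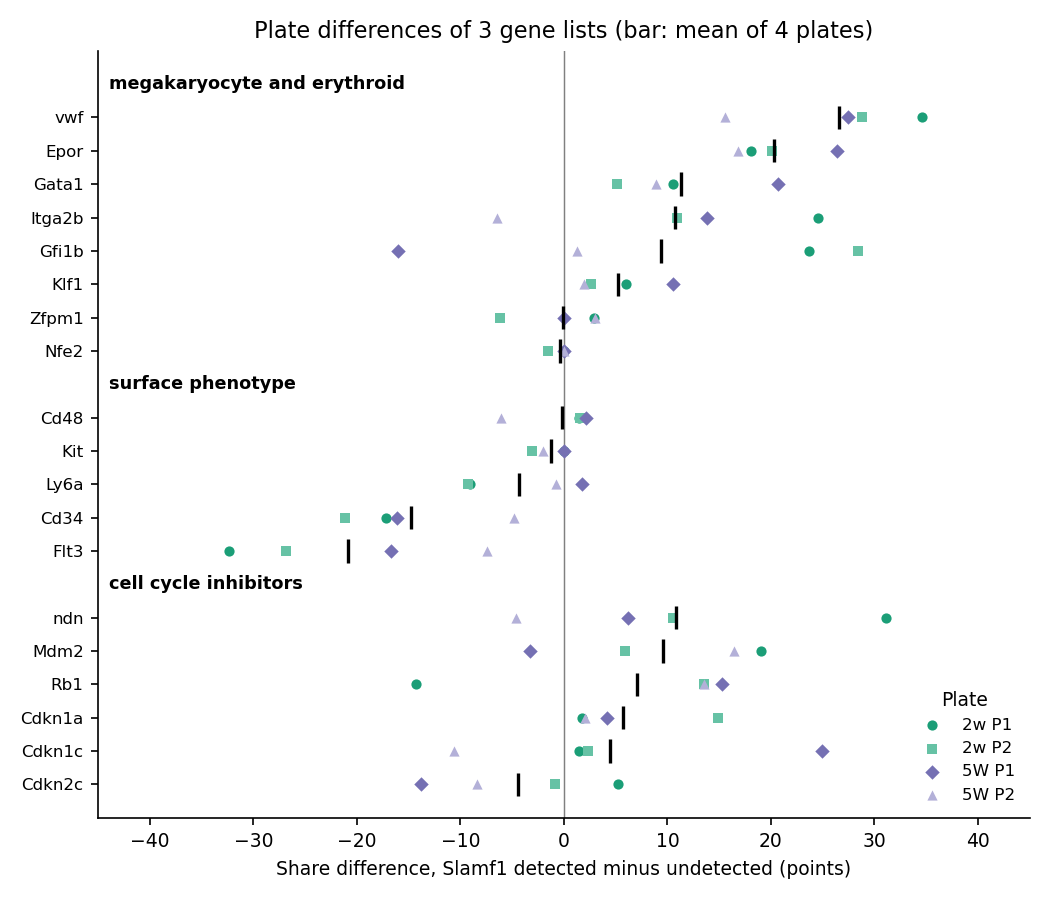
Difference in detection share between Slamf1-detected and Slamf1-undetected cells (percentage points, horizontal axis) on each of 4 plates (symbols), with the mean as a bar. Shown are the surface phenotype genes and the megakaryocyte and erythroid genes and cell cycle inhibitors that the text names. For vwf, Epor and Gata1 all 4 symbols lie right of 0, and for Flt3 and Cd34 all 4 lie left.

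Levels were compared only among cells that had the product, as the difference in Ct with the sign turned so that a positive value means more template in the Slamf1-detected cells. Both groups had at least 5 such cells on every plate in 72 assays. As the Ct stands, 5 of 72 were called higher (6.94%) and 2 of 72 lower (2.78%). Among the higher calls were Itga2b (0.96 cycles), Cdkn1c (0.70), which encodes the p57 inhibitor, and Zfpm1 (0.65). The lower calls were Prmt2 (-0.75) and Flt3 (-0.73). The median over all 72 was 0.17 cycles, and after subtracting the reference Ct it was -0.08 over 70 assays, a shift of the whole scale. On that scale 0 of 70 were called higher (0%) and 3 of 70 lower (4.29%): Prmt2 at -1.17 cycles, Flt3 at -1.01 and IKZF2 (Ikzf2, a zinc finger factor of the Ikaros family) at -0.57.

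Flt3 was therefore rarer and, where present, weaker in the detected cells. Its mean Ct was 15.8 ± 1.77 (SD, n = 22 cells) against 15.2 ± 1.18 (n = 15) on 2w P1, 15.6 ± 1.64 (n = 29) against 15.1 ± 0.93 (n = 20) on 2w P2, 18.8 ± 2.71 (n = 21) against 16.9 ± 2.39 (n = 27) on 5W P1 and 16.9 ± 2.15 (n = 19) against 16.8 ± 2.89 (n = 15) on 5W P2. The Ct was later in the detected cells on each plate, by less than the spread between cells. Relative to the reference Ct the difference was -0.95, -0.86, -1.95 and -0.29 cycles. Without 5W P1 it averaged -0.36 cycles as it stands, which is under the minimum, and -0.70 with the reference Ct, which is not. With detected cells limited to a Slamf1 Ct of 18 or below, the 6 cells with later products were counted as undetected. In that setting 1 plate had the opposite sign and Flt3 was not called on either scale (-0.76 and -1.01 cycles). The Flt3 level was called in 7 of 11 alternative settings as it stands and in 13 of 14 with the reference Ct. Both counts include the setting with any Slamf1 product taken as detected, which has the same groups and only repeats the main result.

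Prmt2 had few positive cells and the largest level difference with the reference Ct. The Ct was 17.2 ± 0.41 (n = 10) against 16.9 ± 0.59 (n = 7) on 2w P1, 17.2 ± 0.49 (n = 9) against 16.8 ± 0.99 (n = 6) on 2w P2, 17.6 ± 1.98 (n = 18) against 16.8 ± 0.74 (n = 23) on 5W P1 and 17.8 ± 2.59 (n = 18) against 16.4 ± 0.68 (n = 11) on 5W P2. The difference relative to the reference Ct was -0.91, -0.67, -1.05 and -2.06 cycles. IKZF2 gave -0.10, -0.41, -0.78 and -0.96 cycles on that scale, lost its call without 5W P1 (-0.49) and without 5W P2 (-0.43), and stood at -0.07 when products later than Ct 25 were counted as well. On that scale IKZF2 was called in only 5 of 14 alternative settings. These calls include the setting with any Slamf1 product taken as detected, which only repeats the main result.

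Zfpm1 differed in level in the same direction on the 4 plates, with nearly equal shares of cells holding the product. It differed by 0.73, 0.97, 0.57 and 0.32 cycles as it stands and by 0.37, 0.51, 0.45 and 0.28 with the reference Ct, all above 0 and on average 0.40, under the minimum. Cdkn1c and Itga2b kept a mean above 0 with the reference Ct (0.46 and 0.77 cycles), but each had a plate below 0, at -0.03 on 2w P1 and -0.05 on 5W P1.

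**Figure D5:**
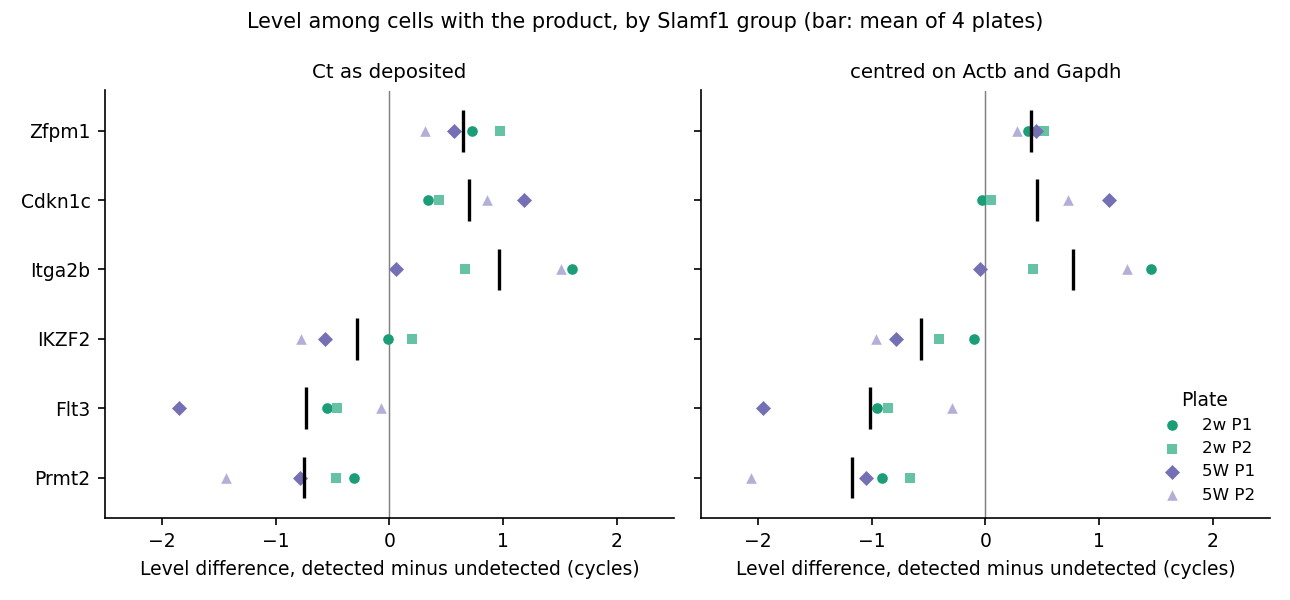
Level difference among cells with the product (cycles, positive for more template in Slamf1-detected cells) on each of 4 plates (symbols) with the mean as a bar, from the Ct as deposited (left) and from the Ct relative to Actb and Gapdh (right). Flt3 and Prmt2 lie left of 0 on all 4 plates in both panels, and Zfpm1 lies right of 0 on all 4 plates in both.

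The called transcripts were combined within cells to see how sharply Slamf1 detection followed them. Cells with vwf and without Flt3 made up 37.3, 30.8, 34 and 40% of detected cells over 2w P1, 2w P2, 5W P1 and 5W P2, and 0, 3.57, 20.5 and 30.3% of undetected cells. The first of these was 0 of 23 cells, which allows a share of up to 13% by the limit of 3 counts and up to 14.8% by the exact 95% interval. Cells with Flt3 and without vwf made up 26.9, 32.3, 14.9 and 20.0% of detected cells and 56.5, 60.7, 45.5 and 33.3% of undetected cells. Pooled over plates, Slamf1 was detected in 81 of 101 cells of the first kind (80.2%, exact 95% interval 71.1 to 87.5%). It was detected in 56 of 117 of the second (47.9%, 38.5 to 57.3%). These 2 intervals treat pooled cells as independent and leave out the spread between plates, so they are too narrow. The second kind ran from 25.9% on 5W P1 to 58.1% on 2w P1. On 2w P1 all 25 vwf-positive, Flt3-negative cells had Slamf1, as did 20 of 21 on 2w P2, 16 of 25 on 5W P1 and 20 of 30 on 5W P2. Over all plates, cells with both products stood at 68.6% (35 of 51) and cells with neither at 64.8% (57 of 88). On the 5-week plates the cells with both were not below the vwf-positive, Flt3-negative cells, at 14 of 21 and 9 of 13, so the pooled order does not hold on each plate.

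Slamf1 detection was higher with each further megakaryocyte and erythroid transcript that a cell held among vwf, Epor and Gata1. It was found in 77 of 151 cells with none of the 3 (51%, 42.7 to 59.2%), in 87 of 130 with 1 (66.9%, 58.1 to 74.9%), in 49 of 59 with 2 (83.1%, 71 to 91.6%) and in 16 of 17 with all 3 (94.1%, 71.3 to 99.9%). The share did not fall at any of these steps on any plate. The intervals in this paragraph pool cells over plates and leave out the spread between plates, so they are too narrow. Among cells with none of the 3 transcripts, the share ran from 17.9% on 5W P1 to 61.2% on 2w P1. On the 2-week plates all 29 cells with at least 2 of them had Slamf1, 13 on 2w P1 and 16 on 2w P2. Cells with vwf and Epor together were 45 of 229 detected cells (19.7%) and 6 of 128 undetected cells (4.69%). The order ran downwards with the progenitor transcripts, from 60 of 73 cells without Flt3 and Cd34 (82.2%, 71.5 to 90.2%) through 104 of 155 with 1 of them (67.1%, 59.1 to 74.4%) to 65 of 129 with both (50.4%, 41.5 to 59.3%), an order that held on each plate but 5W P2. Since these genes were chosen for their difference between the same groups, the shares describe its size and are no further evidence for it.

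The differences were also taken within subgroups of cells. Among cells with Flt3 the vwf share was higher in the detected group by 19.7 points on average. Among cells without Flt3 it was higher by 29 points, and both differences were above 0 on all 4 plates. These averages hide a swap between the plates. Among cells with Flt3 the vwf difference was at most 12.6 points on the 2-week plates and at least 20.7 on the 5-week plates. Among cells without Flt3 it was at least 43.1 points on the 2-week plates and at most 8.96 on the 5-week plates. Epor differed by 16.4 points among Flt3-positive and 22.7 points among Flt3-negative cells, again on 4 of 4 plates. Flt3 was lower by an average of -17.3 points among cells without vwf and -17.7 points among cells with Cd34, on 4 of 4 plates. Among cells with vwf it was lower on the 2-week plates and higher on the 5-week plates, by 2.9 and 2.5 points, and among cells without Cd34 it was higher by 9.9 points on 5W P2. Vwf differed by 19.9 points among cells with Cd34, on 4 of 4 plates, and by 34.9 points among cells without Cd34, where 5W P2 gave -9.9. Cd34 differed by -11.3 points among Flt3-positive cells on 4 of 4 plates and by -14.9 points among Flt3-negative cells, where 5W P2 went the other way. These subgroups were compared after seeing the data and some are small, with at least 8 undetected cells per plate when split by Flt3, but as few as 6 among cells without Cd34 and 2 among cells with vwf.

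Correlations with the Slamf1 level are a description across cells that share a plate and a depth. Over all cells they use the values that divided the groups and largely restate that division, so the values within the detected cells are given as well. For 78 assays found often enough, Spearman's rho with the Slamf1 level was taken on each plate, undetected reactions set at the limit and the reference Ct removed from both. Over all cells vwf had the highest mean over plates (0.37, 0.33 to 0.44), with Zfpm1 (0.31, 0.26 to 0.35), Mllt3 (0.28, 0.16 to 0.37) and Epor (0.24, 0.14 to 0.36) among the highest 5, and the lowest means belonged to Cd34 (-0.29, -0.46 to -0.14), Flt3 (-0.27, -0.36 to -0.09), Csf2rb (-0.14), Sfpi (-0.12) and Hlf (-0.10). Within the 47 to 67 detected cells of a plate alone, rho averaged 0.33 for vwf (0.23 to 0.42), 0.32 for Mllt3 (0.23 to 0.39) and 0.27 for Zfpm1, and -0.24 for Cd34 (-0.45 to -0.05) and -0.18 for Flt3 (-0.28 to -0.03). Epor ran from 0.04 to 0.43 and Gata1 from 0.06 to 0.14. The median over the 78 assays was 0.08, so most values within the detected cells were weak.

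Chase time and plate cannot be told apart, so the differences at 2 weeks and 5 weeks are given side by side without a test. Vwf differed by 31.7 points at 2 weeks and 21.5 points at 5 weeks, Epor by 19.1 and 21.6, Gata1 by 7.9 and 14.8, Flt3 by -29.6 and -12.1 and Cd34 by -19.2 and -10.5. Both 5-week plates lay nearer 0 than both 2-week plates for vwf, Flt3 and Cd34, but not for Epor and Gata1. Over all 95 assays 32 had both 5-week plates on 1 side of both 2-week plates, 16 above and 16 below. The differences of the 95 assays resembled each other little between plates, with Pearson's r from 0.02 (2w P2 with 5W P2) to 0.37 (2w P1 with 2w P2), taken across assays, which are not independent replicates. Plate 5W P2 was least like the others, at 0.02 to 0.15, and also had the smallest differences of the 4 plates for vwf, Epor, Flt3 and Cd34.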

How the data were processed

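Single cells were sorted into lysis buffer, reverse transcribed, pre-amplified for 22 cycles with 96 assays, diluted 5-fold and run for 30 cycles of EvaGreen quantitative PCR, per the labels' protocols. Raw threshold cycles (Ct) were deposited by the authors, each for 1 reaction, and 999 stands for a reaction without product. How the threshold was set is not stated in the sources used here. All 357 columns were mapped to cells, and 0 had no sample. Of 34272 reactions, 13989 had no product and 60 were later than Ct 25, and all of these counted as undetected. Values ran from 8.56 to 27.6.

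Shares were compared within plates and averaged over the 4 plates with equal weight. The reference Ct entered a linear fit per plate for shares and was subtracted for levels. Exact Clopper-Pearson intervals are at 95%. No test gave a p. Some genes that the rules took are not reported here. The named genes were the called assays, the surface phenotype genes and, for each list, up to 4 members with the largest share differences. The assays most and least like Slamf1 and those with opposite signs at the chase times were also named. Members, lists and rules were chosen with earlier results of these data known.

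Of the 96 assay names, 82 matched RefSeq mouse symbols (GRCm38.p6) as printed, 13 in other case or hyphenation, and 1 was kept. The steps were tested on simulated plates. Alternatives were other Ct limits, covariates, centrings and weights, and each plate left out in turn. Python 3.11.15, pandas 2.3.3, numpy 2.4.6, scipy 1.17.1 and matplotlib 3.10.9 were used.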

Additional observations from a re-analysis of the deposited data

Results flagged for a closer look

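In 5 cases, of 48 share differences and 37 level differences examined, 1 plate lay far from the other 3, and about 1 in 20 such groups does so by chance. The share difference of Cd48 was -6.06 points on 5W P2 against 1.49 to 2.13 on the others, and that of Rb1, the retinoblastoma gene, was -14.3 points on 2w P1 against 13.6 to 15.2. In level relative to the reference Ct, ndn stood at -0.85 cycles on 2w P1 against 0.06 to 0.10, the stem cell factor gene Tal1 at 0.59 on 5W P2 against -0.58 to -0.39, and the immediate early gene Egr1 at 0.13 on 2w P2 against -0.70 to -0.57.

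For 13 differences between Slamf1-detected and Slamf1-undetected cells, both 2-week plates had 1 sign, both 5-week plates the other, and the change passed the minimum size. They were picked for this pattern among 95 share and 70 level differences, and the difference between chase times was not tested. Of these, 3 were in detection share. The ceramide synthase gene Cers4 went from 17.1 points at 2 weeks to -10.3 at 5 weeks, a change of -27.4, the immediate early gene Fos from 1.76 to -13.6 (-15.4), and the repressor gene Gfi1 from -11.7 to 6.77 (18.5).

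The other 10 were in level relative to the reference Ct. Trib2, a pseudokinase gene, went from -1.72 cycles at 2 weeks to 1.39 at 5 weeks, a change of 3.11. The zinc finger gene Zfp37 went from -0.58 to 1.33 (1.91), Hoxb5 from -0.78 to 0.99 (1.77), the cell cycle kinase CDK6 from -0.37 to 0.87 (1.24) and Runx1t1 from -0.78 to 0.35 (1.13). Smaller changes were those of the Polycomb gene Cbx7 from -0.60 to 0.45 (1.05), Cers4 from -0.39 to 0.49 (0.89), Kit from -0.47 to 0.14 (0.61) and Nfat5 from -0.40 to 0.21 (0.61). The immediate early gene Jun alone went down, from 0.21 to -0.53 (-0.74).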

How the results depend on the processing

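In detection share vwf and Epor were called higher, and Flt3 and Cd34 lower, in every setting tried. There were 11 settings without and 15 settings with the reference Ct. Both counts include the setting that takes any Slamf1 product as detected. No Slamf1 product was later than the Ct limit, so that setting has the same groups as the main result and cannot differ from it. It adds no support to any count of settings given here or above. Vwf ranged from 19.8 to 30.3 points and Epor from 13.8 to 21.5, Flt3 from -26.2 to -16.6 and Cd34 from -24.2 to -12.7. None of these 4 changed sign, whereas some values that were not called did, such as Gfi1 in share, from -6.83 to 4.37 points. Gata1 was called in 8 of 11 settings without the reference Ct and 1 of 15 with it, and Cdkn2c in 9 of 15 with it. Counts of calls moved more. The sign part of the call rule is easier to meet once a plate is left out, because only the remaining plates must have the same sign. With each plate left out in turn, higher detection calls ran from 3 to 5, with 5 without 2w P1 and 5 without 5W P2 (with the reference Ct 3 to 4), and lower ones from 2 to 3 (with the reference Ct 3 to 5). The median share difference with the reference Ct then ran from 0 to 0.60 points. Level calls as the Ct stands ran from 6 to 9 higher and 1 to 2 lower, and with the reference Ct from 0 to 2 higher and 2 to 5 lower. A Ct limit of 18 gave 2 higher and 0 lower level calls. The central 80% of reference Ct gave 3 higher and 1 lower, and 4 higher detection calls with the reference Ct. Restricting detected cells to a Slamf1 Ct of 18 or below moved the 6 cells with later products to the undetected group. That gave 1 lower level call as it stands and 1 with the reference Ct. Among reference-centred levels, the broadly detected assays as centre gave 2 higher of 72 assays. Centring on the plate median, added after seeing the data, gave 3 higher of 72. All cells with undetected reactions at the limit gave 6 higher and 8 lower of 93 assays. That last setting combines detection with level, so its counts are not like those among cells with the product. The cause of these changes was not tested. Undetected groups of 23 to 44 cells per plate limit each share. No paired analysis was possible because the plate and well numbers do not pair cells of the 2 groups, which were compared within each plate.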
